A study of Mus musculus with 10 samples.

Results

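The comparison described here sets 1 RNA library of LSL-K4M brown fat cells treated with 4-hydroxytamoxifen (4OHT) against 1 library of the same line under mock treatment, so its members are 2 of the 10 samples of the series. All genes of the table that holds these libraries were kept, with 1 transcript for each gene name, which left 22835 names of 29082 transcripts. The cells came from interscapular brown fat of newborn mice of the genotype LSL-K4M;CreER and were made to grow indefinitely with SV40 large T antigen. The recombinase CreER is carried by mock and 4OHT cultures alike, and so is the stopped LSL-K4M allele. By its name the allele is a lox-stop-lox cassette from which 4OHT releases histone H3.3 with methionine in place of lysine 4. The files used here hold no LSL-K4M cells without CreER and no cells with CreER alone, so an effect of 4OHT itself and an effect of the mutant histone cannot be told apart. Both libraries are labelled as mature adipocytes of day 7 after confluent cells were given a mix of insulin, T3, IBMX, dexamethasone and indomethacin. The title of the 4OHT library says day 0 while its stage label and the header of its table say day 7, and the files settle it no further. Day 7 is taken here. If the title were right, 4OHT and the day of differentiation could not be told apart in any difference below. The series also holds 2 libraries of the Mll3f/f;Mll4SETf/f;CreER line, of which only the mock one is used here, as a yardstick, and 6 ChIP and input libraries that were not analysed here.

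Methylation of lysine 4 of histone H3 marks promoters and enhancers, and the methyltransferases MLL3 and MLL4 place a large part of it at enhancers. H3.3 is the variant of H3 that is put into chromatin outside of DNA replication. During adipogenesis a first wave of factors, among them the C/EBP proteins, switches on Pparg and Cebpa, and these then maintain the genes for taking up, making, storing and releasing fat. Brown fat cells add a dense set of mitochondrial genes and the uncoupling protein UCP1, which turns the energy of fuel oxidation into heat.

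With 1 transcript per name, 15211785 reads were counted in the mock and 16722009 in the 4OHT library. Levels are reads scaled for the length of the transcript and the size of the library (RPKM), as the authors deposited them. Differences are log2((4OHT RPKM + 1)/(mock RPKM + 1)), and genes past a limit of 2-fold on that scale were called lower or higher; the added 1 shrinks the differences of genes with few reads. Ratios are of RPKM itself, and the range after each is an exact 95% interval of its reads, which covers counting error only. There was 1 library on each side, so differences cannot be set against replicates and p-values are left out. In RNA from a whole culture, fewer cells of a type and less RNA per cell cannot be told apart, and this applies to every fat cell gene below.

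Of 12179 measured genes, those reaching 1 RPKM in at least 1 of the libraries, 754 were lower and 642 were higher with 4OHT. These are 6.19% and 5.27% of the measured genes, or 11.5% in either direction, and lower calls made up 54.0%. Median-ratio scaling moves the median of all genes from 0.10 to 0.00, and the split was then 910 lower and 481 higher, or 65.4% lower. Upper-quartile scaling gave 871 and 518, or 62.7% lower. With a smaller pseudocount of 0.1 RPKM, by contrast, 1040 were lower and 1019 higher, or 50.5% lower, so the excess of lower calls depends on these choices. Of the genes named below as higher, Actb, Acvrl1, Cebpd, Csf1, Gpx8, Hif1a, Hoxc9, Klf5, Palld and Pltp lost the call under both scalings and Bgn, Eng and Tead1 under median-ratio scaling. With the pseudocount of 1 RPKM the calls were most frequent among strongly expressed genes. That pseudocount holds back calls of weak genes, and the shares by level were not computed with a smaller one. At a mean level of 100 RPKM or more, 20.2% of 376 genes were lower and 13.3% were higher, against 4.86% and 4.40% of 6250 genes between 1 and 10 RPKM. The lower side also reached further, with 130 genes at 4-fold or more against 38 on the higher side. In reads, the genes called lower took 21.3% of the mock library and 5.85% of the 4OHT library, and those called higher took 6.10% and 16.0%. Just past the limit on the lower side lay Suv420h2 and Ndufs3, both at -1.01, and just short of it Cycs and Phyh, both at -0.99. On the higher side Palld and Klf5 lay just past it, both at 1.01, and Lats2 just short of it at 0.99.

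**Figure D1:**
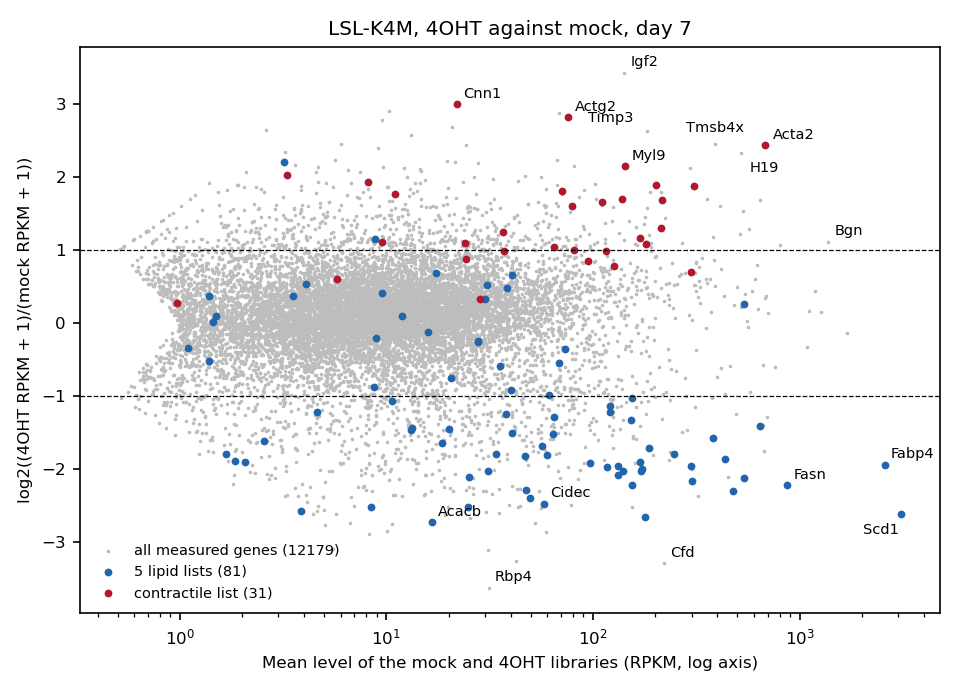
Each grey point is 1 of 12179 measured genes, with the mean RPKM of the 2 LSL-K4M libraries on a log axis and the log2 difference of 4OHT against mock on the vertical axis; the dashed lines mark 2-fold. The members of 5 lipid lists (blue) lie mostly below the lower line and reach the highest levels (Scd1, Fabp4), while all 31 measured contractile genes (red) lie above 0.

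The mock library of the other line gave the only measure in the files of how far untreated cultures lie apart, although it is a different line and was scaled in a table of its own. Between the mock libraries 600 of 12027 genes, or 4.99%, were 2-fold or more apart, with a median difference of -0.00. Of the 754 genes called lower with 4OHT, 713 were below both mock libraries and 41 were not. Of the 642 called higher, 629 were above both and 13 were not. A gene called with 4OHT and under 2-fold between the mocks lies beyond both mocks by arithmetic, so these counts add nothing for such genes. The lists below differ in how many members were apart between the mocks.

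The labelled cell type was checked against 18 brown adipocyte markers. Of these, 16 were measured, and their summed level over all 18 was 5151 RPKM in the mock library and 1315 RPKM in the 4OHT library. The list includes Pparg, Fabp4, Adipoq and Plin1, which are genes of fat cells in general. Fabp4 alone made up most of both sums, at 4099 RPKM in mock cells and 1066 RPKM in 4OHT cells. The sums thus say little about brown fat cells in particular. With 4OHT 14 were lower, 1 was higher and 1 lay under 2-fold, and the median difference was -1.93. Ucp1 was weakly expressed even in the mock library, at 3.58 RPKM from 127 reads, and stood at 0.0793 RPKM from 3 reads with 4OHT, 45.1-fold lower (15.1 to 222). Cox8b, a subunit of cytochrome oxidase found in brown fat and muscle, was at 15.3 RPKM in mock cells and 1.2 RPKM in 4OHT cells, 12.8-fold lower (6.72 to 27.4). Otop1, the gene of a proton channel in brown fat, stood at 2.78 RPKM in mock cells and 0.11 RPKM in 4OHT cells, 25.2-fold lower (12.5 to 59.2). Adipoq, the adiponectin gene, was at 483 RPKM in mock cells and 119 RPKM in 4OHT cells and at 167 RPKM in the other line's mock library. The 1 higher marker was Fabp3, a fatty acid binding protein of heart and brown fat, at 0.507 RPKM in mock cells and 5.91 RPKM in 4OHT cells from few reads. Adipocyte genes were thus present in both libraries and lower in the 4OHT library.

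Markers of other cell types were low in both libraries. Of 15 macrophage and leukocyte markers 4 were measured and 2 had no read in either library, and their summed level was 9.86 RPKM in the mock and 7.40 RPKM in the 4OHT library. Tyrobp was at 0 in both libraries, and Ptprc, the pan-leukocyte gene CD45, had no read in the mock and 1 read in the 4OHT library. Of 11 endothelial markers 3 were measured and 3 had no read in either library, with summed levels of 11.5 and 22.8 RPKM. The endothelial cadherin gene Cdh5 was at 0 in both, and Eng, the endothelial member that was called higher, is also made by mesenchymal cells. Of 22 skeletal muscle markers 3 were measured and 9 had no read in either library, Myod1, Myog and Pax7 among them, with summed levels of 9.48 and 17.5 RPKM. The one called higher was Acta1, skeletal actin, at 3.33 RPKM in mock cells and 10.9 RPKM in 4OHT cells. Summed levels over the lists of Schwann and neuronal, epithelial, and chondrocyte and osteoblast markers were 4.78 and 2.91, 2.54 and 2.08, and 12.5 and 13.0 RPKM in mock and 4OHT. Of these, 2 of 11, 1 of 9 and 3 of 10 were measured, and Alpl, alkaline phosphatase, was the only one past 2-fold (5.25 RPKM in mock cells and 0.95 RPKM in 4OHT cells).

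The promoters of 4 genes called in opposite directions are shown here as examples of windows that hold a motif. Each is the RefSeq window of 250 bases before to 50 bases after an annotated start, in build GRCm38.p6, printed 5′ to 3′ along the gene, with a motif in capitals. Myl9, which encodes the regulatory light chain of smooth muscle myosin, was higher with 4OHT, and its window at chr2:156775214-156775513, plus strand, holds a CArG box, the site that serum response factor binds. Cidec, Gpam and Plin1 were lower, and their windows at chr6:113434715-113435014, chr19:55127189-55127488 and chr7:79732727-79733026, all on the minus strand, hold the C/EBP motif, TTGC and AA with 2 bases of any kind between them.
Myl9: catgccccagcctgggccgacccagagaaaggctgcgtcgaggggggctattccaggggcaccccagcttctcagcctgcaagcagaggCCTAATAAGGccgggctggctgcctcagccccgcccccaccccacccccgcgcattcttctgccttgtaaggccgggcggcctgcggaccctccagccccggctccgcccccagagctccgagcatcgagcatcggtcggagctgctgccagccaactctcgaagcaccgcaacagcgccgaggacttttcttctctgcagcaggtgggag
Cidec: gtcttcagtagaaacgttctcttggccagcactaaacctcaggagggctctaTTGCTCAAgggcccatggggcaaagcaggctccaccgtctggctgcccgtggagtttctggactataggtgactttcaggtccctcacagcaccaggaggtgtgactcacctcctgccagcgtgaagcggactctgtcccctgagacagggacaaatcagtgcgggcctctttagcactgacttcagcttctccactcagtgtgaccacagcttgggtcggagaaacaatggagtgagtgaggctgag
Gpam: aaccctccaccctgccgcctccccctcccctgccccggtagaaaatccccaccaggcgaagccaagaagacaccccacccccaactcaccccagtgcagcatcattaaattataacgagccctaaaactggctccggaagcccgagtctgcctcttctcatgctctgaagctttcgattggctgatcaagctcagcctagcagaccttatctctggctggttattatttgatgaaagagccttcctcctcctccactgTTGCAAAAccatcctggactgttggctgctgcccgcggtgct
Plin1: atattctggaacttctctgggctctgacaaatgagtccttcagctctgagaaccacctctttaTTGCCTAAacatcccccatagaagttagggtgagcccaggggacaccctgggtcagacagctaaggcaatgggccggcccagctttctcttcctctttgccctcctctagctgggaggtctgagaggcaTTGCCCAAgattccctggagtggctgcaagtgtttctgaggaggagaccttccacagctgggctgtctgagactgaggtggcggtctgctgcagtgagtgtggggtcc
The CArG box starts at position -161 from the start site of Myl9. The C/EBP motif starts at -198 in Cidec, at 8 in Gpam, and at -187 and -58 in Plin1. Both strands were searched.

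A CArG box was found in 5 of 30 contractile genes with a window, 16.7%, and in 1.63% of all 32851 windows or 1.81% of 27025 genes. The 5 were Cnn2, Ldb3, Myl6, Myl9 and Vcl, of which Cnn2 and Myl9 were called higher. Of the 86 genes of the lipid lists only 66, or 76.7%, had a window, so a comparison of these lists with all genes is void. The C/EBP motif was found in 7 of the 66, 10.6%, and lies in 12.2% of all genes and 10.8% of all windows, and the 3 lipid promoters printed above were picked because they hold it. The DR1 element that PPARG binds together with a retinoid X receptor, AGGTCA repeated after 1 base, lies in 0.0396% of them. A match is a match of letters in a short window, and the distal elements where MLL3 and MLL4 act lie outside of it.

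Master regulators of fat cells were lower, while the early factors Cebpb and Cebpd were not called lower. Of 20 measured nuclear receptors and C/EBP factors 5 were lower and 2 were higher, with a median of -0.17. Pparg, the nuclear receptor at the centre of fat cell identity, stood at 134 RPKM in the mock and 22.9 RPKM in the 4OHT library, 5.84-fold lower (5.45 to 6.27), and at 100.2 RPKM in the other line's mock library. Cebpa, which sustains Pparg, stood at 159 RPKM in the mock and 51.4 RPKM in the 4OHT library, 3.09-fold lower (2.97 to 3.22), with 158 RPKM in the other mock. Nr1h3, the sterol sensor LXR alpha, was at 25.6 RPKM in mock cells and 5.3 RPKM in 4OHT cells, and Thrb, a thyroid hormone receptor, at 5.15 RPKM in mock cells and 1.02 RPKM in 4OHT cells. The early factor Cebpb was at 101 RPKM in mock cells and 88.1 RPKM in 4OHT cells, 1.14-fold lower (1.09 to 1.2), which is far under the limit, and its companion Cebpd was at 20.5 RPKM in mock cells and 42.5 RPKM in 4OHT cells, 2.08-fold higher (1.93 to 2.24). Cebpg, a C/EBP protein that pairs with other bZIP factors, was lower, at 25.1 RPKM in mock cells and 10.5 RPKM in 4OHT cells, 2.4-fold lower (2.23 to 2.57). The immediate early receptor gene Nr4a1 was at 2.4 RPKM in mock cells and 7.72 RPKM in 4OHT cells, the other one called higher. Among C/EBP factors Cebpa and Cebpg were thus lower, Cebpb was under the limit, and Cebpd was past it on the higher side only without another scaling.

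Among 30 Kruppel-like, EBF, NFI and other regulators 7 were lower and 5 higher (median -0.16). Mlxipl, the glucose-sensing factor ChREBP that drives lipogenic genes, was at 59 RPKM in mock cells and 11.3 RPKM in 4OHT cells, 5.2-fold lower (4.85 to 5.58). Srebf1, the insulin-responsive driver of fatty acid synthesis, was at 306 RPKM in mock cells and 86.3 RPKM in 4OHT cells, 3.54-fold lower (3.46 to 3.63). Irf4, a factor of fasting and thermogenesis in fat, was at 2.66 RPKM in mock cells and 0.204 RPKM in 4OHT cells, and Zfp423, which commits cells to the fat lineage, at 7.27 RPKM in mock cells and 1.9 RPKM in 4OHT cells. Klf4 was on the other side at 11.7 RPKM in mock cells and 37.8 RPKM in 4OHT cells, 3.22-fold higher (2.97 to 3.49), as was Zfp521, an inhibitor of adipogenesis that opposes Zfp423, at 4.27 RPKM in mock cells and 13.5 RPKM in 4OHT cells, 3.17-fold higher (2.88 to 3.48). Gata2, which holds preadipocytes back, was at 1.6 RPKM in mock cells and 5.25 RPKM in 4OHT cells, 3.28-fold higher (2.65 to 4.09). Zfp423 and Zfp521, both zinc finger proteins, thus lay on opposite sides.

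**Figure D2:**
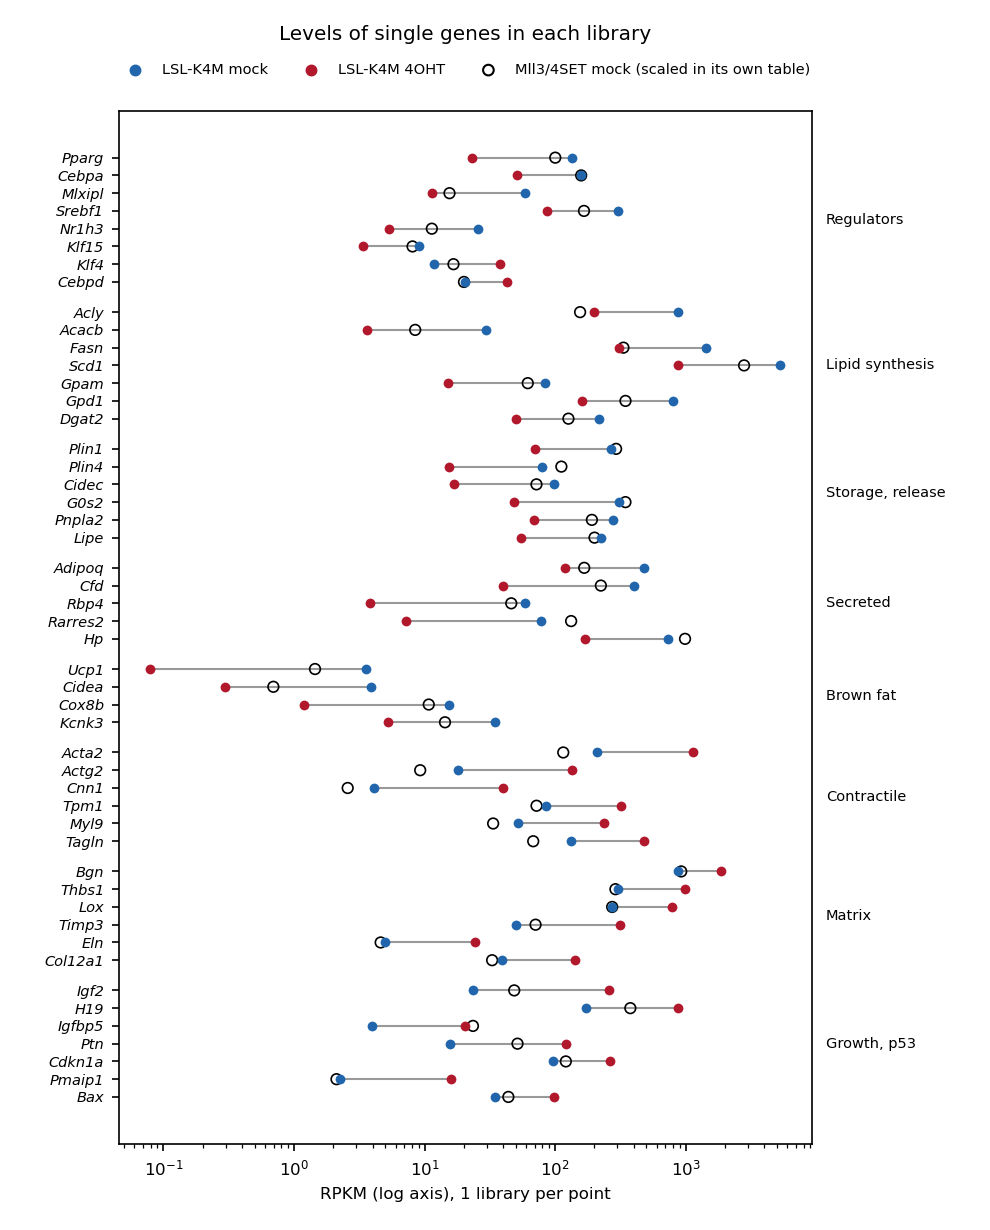
RPKM on a log axis of named genes in LSL-K4M mock (blue), LSL-K4M 4OHT (red) and, as a yardstick scaled in its own table, Mll3/4SET mock (open circles), 1 library per point. Pparg, Cebpa and the storage genes lie near both mock levels in the open circles and far lower in red, Acly and Fasn lie near red in the open circles, and contractile genes lie highest in red.

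Genes that handle fatty acids at the cell surface and in the cytosol were lower in 9 of 16 measured cases and higher in 2, with a median of -1.05. Fabp4, the fat cell fatty acid binding protein, had 1 of the largest losses of RNA, from 4099 to 1066 RPKM. Angptl4, an inhibitor of lipoprotein lipase, was at 41.4 RPKM in mock cells and 8.86 RPKM in 4OHT cells, 4.68-fold lower (4.18 to 5.23), and the fatty acid transporter gene Cd36 at 211 RPKM in mock cells and 53.8 RPKM in 4OHT cells, 3.93-fold lower (3.8 to 4.07). Lpl, the lipase that frees fatty acids from lipoproteins, was at 942 RPKM in mock cells and 352 RPKM in 4OHT cells, 2.68-fold lower (2.65 to 2.71). Fabp3 and Slc27a3, at 5.07 RPKM in mock cells and 12.5 RPKM in 4OHT cells, were the 2 higher ones. Between the mocks 4 of 15 members were 2-fold or more apart.

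Fatty acid synthesis was the pathway with the lowest median of the lipid lists, -1.88, with 16 of 20 measured genes lower and 0 higher. Acacb, the acetyl-CoA carboxylase of the mitochondrial surface, stood at 29.6 RPKM in the mock and 3.63 RPKM in the 4OHT library, 8.16-fold lower (7.54 to 8.84). Fasn, fatty acid synthase, went from 1440.1 to 308 RPKM, and Scd1, the desaturase that makes oleate, from 5306 to 867 RPKM, 6.12-fold lower (6.08 to 6.16). Reads of Scd1 alone were 553788 in the mock and 96527 in the 4OHT library. Its relatives Scd2 and Scd3 were at 682 RPKM in mock cells and 187 RPKM in 4OHT cells and at 264 RPKM in mock cells and 45 RPKM in 4OHT cells, and since the sequences of these genes are alike their reads may have been split between them. Thrsp, a lipogenic thyroid hormone target, was at 495 RPKM in mock cells and 109.7 RPKM in 4OHT cells, and Acly, which supplies cytosolic acetyl-CoA, at 871 RPKM in mock cells and 199.8 RPKM in 4OHT cells. Among the lipid lists it also had the most members apart between untreated lines, 11 of 20 at 2-fold or more between the mocks and a median of -1.01 there. In the other line's mock library Fasn was at 333, Acly at 155 and Thrsp at 52.7 RPKM, so that the 4OHT levels of Acly and Thrsp lay above an untreated culture. Scd1 at 2801 RPKM and Acacb at 8.48 RPKM in that mock library were above their 4OHT levels.

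Triglyceride synthesis had 11 of 15 measured genes lower and 0 higher, with a median of -1.65, and all 11 were below both mocks, while 4 of 15 were apart between the mocks. Mogat1, a monoacylglycerol acyltransferase, was at 7.34 RPKM in mock cells and 0.396 RPKM in 4OHT cells, 18.5-fold lower (10.1 to 37.7). The glycerol channel gene Aqp7 was at 15.1 RPKM in mock cells and 1.81 RPKM in 4OHT cells, 8.37-fold lower (6.82 to 10.4), and Gpam, which adds the first acyl chain to glycerol phosphate, was at 83.9 RPKM in mock cells and 15.1 RPKM in 4OHT cells, 5.57-fold lower (5.25 to 5.91). Gpd1, which makes glycerol phosphate, went from 796 to 161 RPKM, 4.94-fold lower (4.84 to 5.05). The named genes of glycerol transport, glycerol phosphate synthesis and the first acylation were thus lower, while 4 of the 15 stayed under the limit.

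Lipid droplet coat and fusion genes were lower in 8 of 13 cases and higher in none, with a median of -1.62, and only 1 of the 13 was apart between the mocks. Cidec, which fuses droplets, was at 98.5 RPKM in mock cells and 16.9 RPKM in 4OHT cells, 5.84-fold lower (5.37 to 6.35), and Plin4, a perilipin, at 79.8 RPKM in mock cells and 15.5 RPKM in 4OHT cells, 5.14-fold lower (4.9 to 5.4). Plin2, the perilipin of most cell types, was at 256 RPKM in mock cells and 54.2 RPKM in 4OHT cells, 4.73-fold lower (4.53 to 4.95), and Plin1, that of mature fat cells, at 269 RPKM in mock cells and 70.7 RPKM in 4OHT cells, 3.8-fold lower (3.65 to 3.96). Fitm2, which partitions triglyceride into droplets, was at 50.5 RPKM in mock cells and 11.6 RPKM in 4OHT cells. These 3 perilipins thus lay 3.80-fold to 5.14-fold lower. Of the other perilipins in the list, Plin5 lay at a log2 difference of -1.62 and Plin3 at 0.33, the latter under the limit.

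The machinery that breaks fat down was lower as well, in 9 of 17 measured cases with 0 higher and a median of -1.46, and 1 of 17 was apart between the mocks. G0s2, an inhibitor of the first lipase, was at 309 RPKM in mock cells and 48.3 RPKM in 4OHT cells, 6.39-fold lower (5.97 to 6.86). Pnpla3, a lipase of the same family, was at 43 RPKM in mock cells and 6.64 RPKM in 4OHT cells, 6.47-fold lower (5.98 to 7.02), and Lipe, hormone-sensitive lipase, at 225 RPKM in mock cells and 54.5 RPKM in 4OHT cells, 4.12-fold lower (3.97 to 4.28). Pnpla2, the lipase that G0s2 inhibits, was at 277 RPKM in mock cells and 68.8 RPKM in 4OHT cells, 4.03-fold lower (3.89 to 4.17), so the inhibitor and its target were both lower. Gnas, which encodes the G protein that couples beta-adrenergic receptors to cyclic AMP, was at 489.8 RPKM in mock cells and 588 RPKM in 4OHT cells, 1.2-fold higher (1.18 to 1.23), under the limit.

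Of 27 adipokines and other secreted products 17 were lower and 2 were higher, with a median of -1.36. Rbp4, the retinol carrier, had the lowest difference of all genes at 10 RPKM or more, at 58.6 RPKM in mock cells and 3.83 RPKM in 4OHT cells (1177 and 82 reads). Cfd, the fat cell protease also called adipsin, was at 400.1 RPKM in mock cells and 40.1 RPKM in 4OHT cells, and Rarres2, the chemerin precursor gene, at 77.3 RPKM in mock cells and 7.18 RPKM in 4OHT cells. Hp, haptoglobin, was at 729 RPKM in mock cells and 169 RPKM in 4OHT cells, 4.32-fold lower (4.19 to 4.46). Serpina3n, an acute phase protease inhibitor, was 1 of the 2 higher ones, at 40.2 RPKM in mock cells and 92 RPKM in 4OHT cells. Saa3, an acute phase gene and the most abundant of the list with 4OHT, was at 1204 RPKM in mock cells and 1328 RPKM in 4OHT cells, 1.1-fold higher (1.08 to 1.13).

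**Figure D3:**
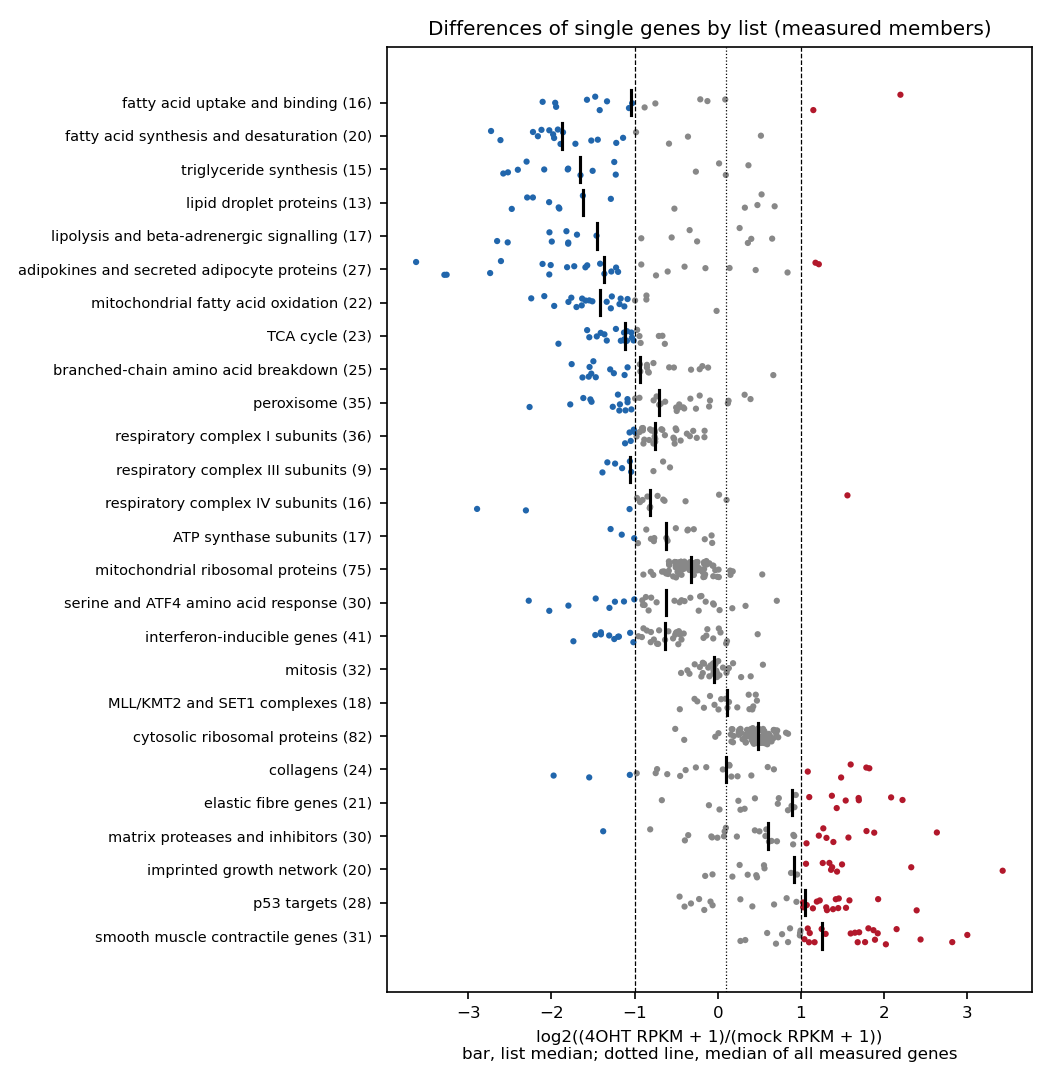
Each point is the log2 difference of 1 measured gene, with lists in rows and the number of measured members in brackets; the bar is the list median, the dashed lines mark 2-fold and the dotted line the median of all genes, 0.10. Medians run from -1.88 for fatty acid synthesis to 1.25 for contractile genes, and mitosis and the MLL complexes lie around 0.

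Genes of glucose entry and insulin signalling were lower in 8 of 24 cases with 0 higher (median -0.39), and 8 lay above 0. Among glucose transporter genes Slc2a1 and Slc2a3 lay at log2 differences of 0.63 and 0.34, under the limit. Slc2a4, the insulin-responsive glucose transporter GLUT4, was at 76.1 RPKM in mock cells and 12.5 RPKM in 4OHT cells, 6.07-fold lower (5.64 to 6.55). Tbc1d4, which holds it back from the surface, was at 15.4 RPKM in mock cells and 3.57 RPKM in 4OHT cells, 4.31-fold lower (3.92 to 4.74). The caveolin genes Cav1 and Cav2 were at 307 RPKM in mock cells and 123 RPKM in 4OHT cells and 109.5 RPKM in mock cells and 42.8 RPKM in 4OHT cells. In glycolysis and lactate handling 14 of 29 were lower and 0 higher (median -0.96). The subunits of the mitochondrial pyruvate carrier, listed as Brp44l and Brp44, were at 22.1 RPKM in mock cells and 5.27 RPKM in 4OHT cells and 175 RPKM in mock cells and 64.9 RPKM in 4OHT cells. Pdk4, Pdk1 and Pdk2, kinases that hold back pyruvate dehydrogenase, were at 10.7 RPKM in mock cells and 2.27 RPKM in 4OHT cells, 33.2 RPKM in mock cells and 9.68 RPKM in 4OHT cells and 23.5 RPKM in mock cells and 7.39 RPKM in 4OHT cells. Pdhb, a subunit of the enzyme they act on, was lower too, at 252 RPKM in mock cells and 66.1 RPKM in 4OHT cells, 3.81-fold lower (3.64 to 4.0). Aldoa, aldolase, went from 965 to 367 RPKM and was at 996 RPKM in the other mock library.

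Mitochondrial genes were lower by amounts that differed between parts of the organelle. Fatty acid oxidation had 18 of 22 genes lower (median -1.42), all 18 below both mocks, with 5 of 22 apart between the mocks (median -0.58). Cpt1b, which brings fatty acids into the organelle in muscle and brown fat, was at 12.7 RPKM in mock cells and 1.89 RPKM in 4OHT cells, 6.7-fold lower (5.55 to 8.16). Acadm, the medium-chain dehydrogenase, was at 96.9 RPKM in mock cells and 24 RPKM in 4OHT cells, 4.03-fold lower (3.76 to 4.32), and Acaa2, the last enzyme of the cycle, at 103 RPKM in mock cells and 29 RPKM in 4OHT cells, 3.55-fold lower (3.31 to 3.82). In the TCA cycle list, which holds pyruvate dehydrogenase, 17 of 23 were lower (median -1.12) and all 23 lay below 0, but the median between the mocks was already -0.75, with 4 of 23 apart. Mdh2, malate dehydrogenase, was at 268 RPKM in mock cells and 132 RPKM in 4OHT cells, 2.02-fold lower (1.95 to 2.11). Breakdown of branched-chain amino acids had 11 of 25 lower (median -0.93), with 0 of 25 apart between the mocks. Bckdhb, a subunit of the dehydrogenase that commits these amino acids, was at 24.5 RPKM in mock cells and 6.56 RPKM in 4OHT cells, 3.74-fold lower (3.21 to 4.38), and Pccb of propionyl-CoA carboxylase at 38.7 RPKM in mock cells and 12.6 RPKM in 4OHT cells, 3.06-fold lower (2.8 to 3.35).

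Respiratory chain lists differed among themselves. Medians were -0.76 for 36 subunits of complex I with 5 lower, -1.06 for 9 of complex III with 6 lower, -0.82 for 16 of complex IV with 3 lower and 1 higher, and -0.62 for 17 of ATP synthase with 3 lower. Median-ratio scaling raised the lower calls to 12 in complex I and 6 in complex IV, and upper-quartile scaling to 8 and 5. The lower members of complex IV without it were Cox8b, Cox7a1 (50.9 RPKM in mock cells and 9.5 RPKM in 4OHT cells), the forms used by muscle and brown fat, and Cox5b (109 RPKM in mock cells and 51.5 RPKM in 4OHT cells). Cox6b2, a form known from testis, was the higher one at 5.55 RPKM in mock cells and 18.3 RPKM in 4OHT cells. Uqcrc2 of complex III was at 106 RPKM in mock cells and 39.9 RPKM in 4OHT cells, 2.65-fold lower (2.51 to 2.81), and Atp5b of ATP synthase went from 982 to 402 RPKM. Medians between the mocks were already -0.58, -0.86, -0.48 and -0.47 for the same 4 groups. Mitochondrial ribosomal proteins had 0 of 75 genes past 2-fold and a median of -0.32, and the cytosolic ones 0 of 82 and a median of 0.49. Of all measured genes 11.5% passed 2-fold. Among 34 measured mitochondrial carriers 5 were lower, 8 under median-ratio scaling (median -0.42), with Slc25a1, the citrate carrier that feeds fatty acid synthesis, at 288 RPKM in mock cells and 87.1 RPKM in 4OHT cells, 3.3-fold lower (3.17 to 3.43). Ant1, listed as Slc25a4, was at 164 RPKM in mock cells and 208 RPKM in 4OHT cells, 1.27-fold higher (1.21 to 1.32).

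Peroxisomal genes were lower in 13 of 35 cases (median -0.70). Pex11a, which divides peroxisomes, was at 44.3 RPKM in mock cells and 8.45 RPKM in 4OHT cells, 5.25-fold lower (4.44 to 6.22), and Abcd2, an importer of long acyl chains, at 10.8 RPKM in mock cells and 2.46 RPKM in 4OHT cells, 4.4-fold lower (3.89 to 5.0). Of 36 glutathione and antioxidant genes 6 were lower and 1 higher (median -0.33), led by Mgst1 at 367 RPKM in mock cells and 107 RPKM in 4OHT cells and the mitochondrial peroxiredoxin gene Prdx3 at 93.1 RPKM in mock cells and 30.2 RPKM in 4OHT cells. Gpx8, a peroxidase of the endoplasmic reticulum, was the higher one at 24.1 RPKM in mock cells and 51.7 RPKM in 4OHT cells.

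**Figure D4:**
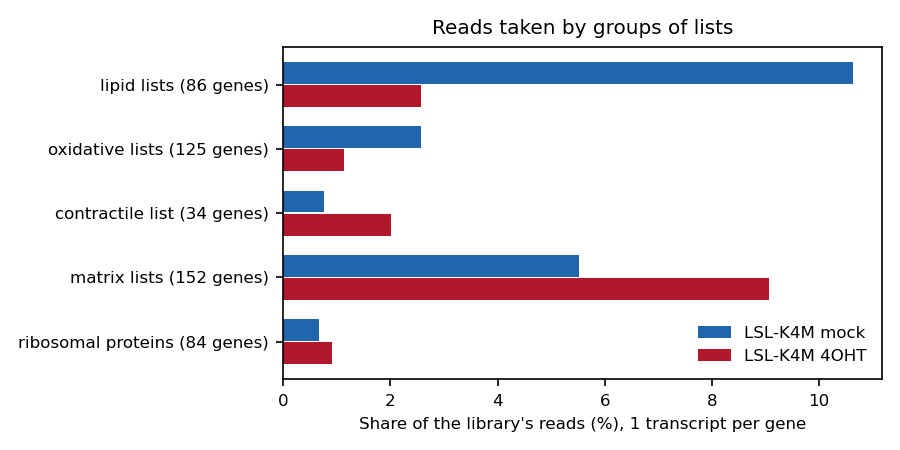
Share of each library's reads, in percent and with 1 transcript per gene, taken by groups of lists in LSL-K4M mock (blue) and 4OHT (red). The 5 lipid lists took 10.6% of the mock reads and 2.56% of the 4OHT reads, and the contractile list 0.751% and 2.00%.

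In all, the 86 genes of the 5 lipid lists took 10.6% of the mock library's reads (Wilson 95% interval 10.6 to 10.7) and 2.56% (2.55 to 2.57) of the 4OHT library's. The oxidative lists, 125 genes, took 2.58% and 1.14%. The contractile list, 34 genes, took 0.751% (0.747 to 0.756) and 2.00% (1.99 to 2.01), and the matrix lists, 152 genes, 5.53% and 9.07%. These shares are of a fixed total, so a large loss in one group raises the share of every other gene.

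Sterol handling split by direction of flow. Of 18 genes of sterol efflux and apolipoproteins 12 were lower and 1 higher (median -1.29). The higher one was Pltp, with a log2 difference of 1.035 that was 0.916 under median-ratio and 0.943 under upper-quartile scaling. The efflux pump gene Abcg1 was at 15.7 RPKM in mock cells and 3.17 RPKM in 4OHT cells, 4.93-fold lower (4.44 to 5.49), Apoc1 at 91.8 RPKM in mock cells and 12.9 RPKM in 4OHT cells, 7.1-fold lower (5.89 to 8.62), and Apoe, the most abundant member, at 243 RPKM in mock cells and 80.1 RPKM in 4OHT cells, 3.04-fold lower (2.9 to 3.19). LXR alpha, the product of Nr1h3, is known to switch on Abcg1, but its part in these values was not tested. Cholesterol synthesis had 2 of 24 lower and 1 higher (median -0.16), with Insig1, the sensor that restrains it, at 103 RPKM in mock cells and 37.6 RPKM in 4OHT cells. Between the mocks 12 of these 24 were 2-fold apart, more than with 4OHT. Among 19 retinoid genes 7 were lower and 1 higher (median -0.45), including Aldh1a7 at 53.9 RPKM in mock cells and 12.6 RPKM in 4OHT cells, Dhrs9 at 6.2 RPKM in mock cells and 0.401 RPKM in 4OHT cells and, on the other side, the retinoic acid binding protein gene Crabp1 at 4.44 RPKM in mock cells and 14.1 RPKM in 4OHT cells.

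Stress and signal-responsive groups were mostly lower in part of their members. In the serine and ATF4 amino acid response 8 of 30 were lower and 0 higher (median -0.63), with Trib3, a pseudokinase induced by ATF4, at 71.4 RPKM in mock cells and 14 RPKM in 4OHT cells, and the amino acid transporter gene Slc1a5 at 184 RPKM in mock cells and 66.1 RPKM in 4OHT cells, 2.79-fold lower (2.69 to 2.89). The unfolded protein response had 0 of 23 past 2-fold, against 11.5% of all measured genes, and a median of 0.38. Of 26 hypoxia-responsive genes 9 were lower and 1 higher (median -0.28). The higher one was Hif1a itself, at 47.5 RPKM in mock cells and 99.3 RPKM in 4OHT cells, and the lower ones included Egln3, the oxygen sensor, at 20.3 RPKM in mock cells and 4.86 RPKM in 4OHT cells, and Ero1l, an oxidase of protein folding, at 76.3 RPKM in mock cells and 23.9 RPKM in 4OHT cells and at 454 RPKM in the other mock library. Of 19 glucocorticoid-induced genes 5 were lower (median -0.33), Angptl4, Pdk4, Sult1a1 and Lcn2 leading, while the metallothionein genes Mt1 and Mt2 were at 226 RPKM in mock cells and 260.0 RPKM in 4OHT cells and 151 RPKM in mock cells and 211 RPKM in 4OHT cells. Clock genes had 4 of 21 lower (median -0.20). Interferon-inducible genes had 10 of 41 lower and 0 higher (median -0.63), with Ifi27l1 at 419.9 RPKM in mock cells and 151 RPKM in 4OHT cells and Psmb9, a subunit of the immunoproteasome, at 45.2 RPKM in mock cells and 16.4 RPKM in 4OHT cells.

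The contractile list had the most members called higher of any list. All 31 measured members lay above 0 and 21 were higher (median 1.25). Between the mocks 0 of 29 were apart, so each of the 21 lay above both mocks by arithmetic. Under median-ratio scaling 17 were higher, and under upper-quartile scaling 19. Cnn1, calponin, which marks differentiated smooth muscle, stood at 4.08 RPKM in the mock and 39.6 RPKM in the 4OHT library, with 2.58 RPKM in the other mock library. Actg2, the enteric smooth muscle actin, was at 18.1 RPKM in mock cells and 134 RPKM in 4OHT cells, 7.39-fold higher (6.74 to 8.12), and Acta2, the vascular one, at 211 RPKM in mock cells and 1147 RPKM in 4OHT cells, 5.44-fold higher (5.31 to 5.57). Tagln, transgelin, was at 131 RPKM in mock cells and 484 RPKM in 4OHT cells, 3.68-fold higher (3.56 to 3.8), and Myl9 at 52.1 RPKM in mock cells and 235 RPKM in 4OHT cells, 4.5-fold higher (4.23 to 4.79). The cytoplasmic actins followed, with Actb at 522 RPKM in mock cells and 1094 RPKM in 4OHT cells and Actg1 at 329.5 RPKM in mock cells and 803 RPKM in 4OHT cells, and so did Tmsb4x, which binds actin monomers, at 121 RPKM in mock cells and 662 RPKM in 4OHT cells, 5.49-fold higher (5.21 to 5.77). Actin genes are alike in sequence, so reads may have been split among them. Myocd, the coactivator that drives the smooth muscle lineage, had 6 reads in the mock and 13 in the 4OHT library, too few to be measured.

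Factors and targets of SRF, MRTF, YAP and TEAD had 7 of 26 higher and 0 lower (median 0.70), but 3 higher under median-ratio and 4 under upper-quartile scaling. Ctgf, a matricellular YAP target, was at 33 RPKM in mock cells and 102 RPKM in 4OHT cells, 3.09-fold higher (2.92 to 3.26), and the TEAD cofactor gene Vgll3 at 11.9 RPKM in mock cells and 37.3 RPKM in 4OHT cells, 3.13-fold higher (2.9 to 3.38). Fhl2, a LIM protein that binds MRTF-SRF, was at 13.4 RPKM in mock cells and 41.6 RPKM in 4OHT cells, 3.1-fold higher (2.79 to 3.45), and Tead1 at 19.1 RPKM in mock cells and 42.2 RPKM in 4OHT cells, 2.21-fold higher (2.13 to 2.29).

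Matrix genes were higher in some families and mixed in others. Elastic fibre genes had 8 of 21 higher and 0 lower (median 0.89), each of the 8 above both mocks. Fbn2, the fibrillin of developing tissue, was at 6.27 RPKM in mock cells and 32.9 RPKM in 4OHT cells, 5.25-fold higher (4.96 to 5.55), and Eln, elastin, at 5.01 RPKM in mock cells and 24.5 RPKM in 4OHT cells. Fbln5, which guides elastin assembly, was at 15.1 RPKM in mock cells and 51 RPKM in 4OHT cells, 3.39-fold higher (3.22 to 3.57), and Lox, which cross-links it, went from 272 to 791 RPKM. The core protein, its scaffold and its cross-linker were thus higher in the same library.

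Collagens went both ways, with 5 higher and 3 lower of 24, and their median of 0.10 turned to -0.02 under median-ratio scaling. Col12a1, of fibril surfaces, was at 39.3 RPKM in mock cells and 142 RPKM in 4OHT cells, and Col8a2, of short-chain networks, at 0.139 RPKM in mock cells and 2.93 RPKM in 4OHT cells from few reads in the mock library. Col15a1, of basement membranes, was at 122 RPKM in mock cells and 30.3 RPKM in 4OHT cells, 4.02-fold lower (3.88 to 4.17), on the lower side. The fibril collagen genes Col1a1 and Col1a2 were at 1047 RPKM in mock cells and 1174 RPKM in 4OHT cells and 668 RPKM in mock cells and 735 RPKM in 4OHT cells, well under the limit. Laminins and nidogens had 0 of 10 past 2-fold, against 11.5% of all measured genes, and a median of -0.38, with 8 of the 10 below 0.

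Matricellular proteins were higher in 8 and lower in 3 of 18 (median 0.76). Nov and Wisp1, of the CCN family, were at 22.8 RPKM in mock cells and 111 RPKM in 4OHT cells and 9.36 RPKM in mock cells and 46.3 RPKM in 4OHT cells, 4.85-fold higher (4.56 to 5.17) and 4.94-fold higher (4.62 to 5.29). Thbs1, thrombospondin, went from 304 to 982 RPKM, and Smoc1 lay on the other side at 31.5 RPKM in mock cells and 6.42 RPKM in 4OHT cells, 4.9-fold lower (4.45 to 5.41). Of 30 proteases and inhibitors 9 were higher and 1 lower (median 0.60), with Timp3, a matrix-bound inhibitor, at 49.7 RPKM in mock cells and 314 RPKM in 4OHT cells, 6.31-fold higher (6.13 to 6.5), and Timp2, Serpine2 and Mmp14, a membrane protease, at 84.7 RPKM in mock cells and 295 RPKM in 4OHT cells, 28.1 RPKM in mock cells and 106 RPKM in 4OHT cells and 91.3 RPKM in mock cells and 273 RPKM in 4OHT cells. Inhibitors and a protease were thus higher side by side. Small leucine-rich proteoglycans and hyaluronan genes had 6 of 15 higher (median 0.57), Bgn (biglycan) at 869 RPKM in mock cells and 1879 RPKM in 4OHT cells having the largest gain in RPKM of all genes, but the list had 3 higher under median-ratio scaling, 7 of 16 were apart between the mocks and Lum and Vcan did not exceed the other mock library. Integrins had 4 of 12 higher and 2 lower (median 0.65). The common beta subunit gene Itgb1 (113 RPKM in mock cells and 261 RPKM in 4OHT cells) and Itga8 (1.31 RPKM in mock cells and 5.85 RPKM in 4OHT cells) were higher and the laminin receptor subunits Itga6 (17.3 RPKM in mock cells and 3.5 RPKM in 4OHT cells) and Itga7 (11.8 RPKM in mock cells and 3.36 RPKM in 4OHT cells) were lower.

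Growth factor genes held the highest single difference. Igf2, a fetal growth factor expressed from the paternal allele, stood at 23.4 RPKM in the mock and 261 RPKM in the 4OHT library, and H19, the maternally expressed RNA of the same domain, at 172 RPKM in the mock and 868 RPKM in the 4OHT library. The other mock library had 48.6 RPKM of Igf2 and 377 RPKM of H19, between the LSL-K4M levels. Of 20 genes of the imprinted growth network 9 were higher and 0 lower (median 0.92), 8 of the 9 above both mocks, and 5 of 20 were apart between the mocks. From a second imprinted domain, Dlk1 (10.3 RPKM in mock cells and 26.2 RPKM in 4OHT cells), a preadipocyte inhibitor of fat formation, and the RNA genes Meg3 (29.9 RPKM in mock cells and 78.5 RPKM in 4OHT cells), Rian (10.6 RPKM in mock cells and 31.7 RPKM in 4OHT cells) and Mirg (0.571 RPKM in mock cells and 3.24 RPKM in 4OHT cells) were all higher, although Meg3 was at 79.3 RPKM in the other mock. Among insulin-like growth factors and their binding proteins 4 of 14 were higher and 2 lower (median 0.63), and 4 of 14 were apart between the mocks. Igf1 was on the lower side at 28.2 RPKM in mock cells and 9.55 RPKM in 4OHT cells, 2.95-fold lower (2.78 to 3.13), opposite to Igf2, and Igfbp5 was at 3.96 RPKM in mock cells and 20.5 RPKM in 4OHT cells but at 23.5 RPKM in the other mock.

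Of 29 FGF, PDGF, EGF and VEGF genes 6 were higher and 3 lower (median 0.34). Ptn, the heparin-binding factor pleiotrophin, was at 15.8 RPKM in mock cells and 122 RPKM in 4OHT cells, 7.7-fold higher (7.12 to 8.35), and the metabolic hormone gene Fgf21 at 5.87 RPKM in mock cells and 0.688 RPKM in 4OHT cells, 8.53-fold lower (4.97 to 15.7). Vegfa, which recruits vessels, was at 85.4 RPKM in mock cells and 36.7 RPKM in 4OHT cells, 2.33-fold lower (2.23 to 2.43). TGF-beta and BMP genes had 9 of 42 higher and 2 lower (median 0.33). The activin subunit genes Inhba and Inhbb were at 8.03 RPKM in mock cells and 31.5 RPKM in 4OHT cells and 4.56 RPKM in mock cells and 16.7 RPKM in 4OHT cells, and the activin-like receptor gene Acvr1c, known from fat cells, was at 16.3 RPKM in mock cells and 3.15 RPKM in 4OHT cells, 5.18-fold lower (4.75 to 5.65). The receptor genes Acvrl1 and Eng were among the higher ones, so receptors went both ways. Wnt genes had 5 of 23 higher and 0 lower (median 0.63), with the receptors Ror1 at 2.24 RPKM in mock cells and 7.86 RPKM in 4OHT cells and Ror2 at 3.48 RPKM in mock cells and 9.38 RPKM in 4OHT cells, and Dkk3 at 8.12 RPKM in mock cells and 20.7 RPKM in 4OHT cells.

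Secreted immune signals also went both ways. Chemokines had 4 of 18 higher and 1 lower, with a median of 0.26 that was -0.03 with no minimum level. Ccl11, which attracts eosinophils, was at 7.04 RPKM in mock cells and 36 RPKM in 4OHT cells, 5.12-fold higher (4.33 to 6.09), and Ccl7, which attracts monocytes, at 91.8 RPKM in mock cells and 230.5 RPKM in 4OHT cells, 2.51-fold higher (2.37 to 2.66), while Cxcl9, an interferon-induced ligand, was at 25.6 RPKM in mock cells and 5.31 RPKM in 4OHT cells, 4.82-fold lower (4.3 to 5.43). Complement genes had 5 of 18 lower and 1 higher (median -0.53), with C3, the central component, going from 539.9 to 104 RPKM, 5.2-fold lower (5.1 to 5.31). Cd55, which protects cells from complement, was the higher one at 1.17 RPKM in mock cells and 10.9 RPKM in 4OHT cells, 9.27-fold higher (7.16 to 12.2). Among 16 cytokine genes Il33 was at 9.07 RPKM in mock cells and 1.46 RPKM in 4OHT cells, 6.22-fold lower (4.94 to 7.93), and its receptor gene Il1rl1 at 4.97 RPKM in mock cells and 15.6 RPKM in 4OHT cells, 3.14-fold higher (2.77 to 3.56), so ligand and receptor lay on opposite sides. Csf1, the macrophage growth factor, was at 106 RPKM in mock cells and 222 RPKM in 4OHT cells, the other higher one of this list.

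Targets of p53 were higher in 16 of 28 measured cases and lower in none (median 1.05). Under median-ratio and upper-quartile scaling 13 were higher, with medians of 0.94 and 0.97. Between the mocks 0 of 28 were apart, so all 16 called without another scaling lay above both mocks by arithmetic. Pmaip1, which promotes cell death, was at 2.23 RPKM in mock cells and 16 RPKM in 4OHT cells, 7.14-fold higher (5.93 to 8.66), and Psrc1, a spindle protein, at 9.22 RPKM in mock cells and 37.9 RPKM in 4OHT cells, 4.11-fold higher (3.65 to 4.63). Zmat3, an RNA-binding target, was at 8.18 RPKM in mock cells and 26.5 RPKM in 4OHT cells, 3.24-fold higher (3.05 to 3.44), and Cdkn1a, which encodes the cell cycle inhibitor p21, at 95.5 RPKM in mock cells and 262 RPKM in 4OHT cells. Mdm2, which degrades p53 itself, was at 30.6 RPKM in mock cells and 76.9 RPKM in 4OHT cells, 2.52-fold higher (2.39 to 2.65). Of the 28 targets 7 lay below 0, all under the limit. Phlda3 was among these at 165 RPKM in mock cells and 132 RPKM in 4OHT cells, 1.25-fold lower (1.2 to 1.3). These cells carry SV40 large T antigen, which is known to bind p53, in mock and 4OHT cultures alike.

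Genes of mitosis and DNA replication stayed under the limit, which 11.5% of all measured genes passed. Mitosis had 0 of 32 genes past 2-fold (median -0.05) and DNA replication 0 of 36 (median -0.10), with Mki67 at 39.2 RPKM in mock cells and 28.6 RPKM in 4OHT cells and Top2a at 41 RPKM in mock cells and 35.2 RPKM in 4OHT cells. Between the mocks, by contrast, 29 of the 32 mitosis genes were 2-fold or more apart (median -1.42), whereas the differences with 4OHT ran from -0.44 to 0.54. Of 28 cyclins, kinases and inhibitors 1 was lower and 2 higher (median 0.12), the higher ones being the inhibitor genes Cdkn1a and Cdkn2b (28.1 RPKM in mock cells and 65.3 RPKM in 4OHT cells) and the lower one E2f2 (6.59 RPKM in mock cells and 1.77 RPKM in 4OHT cells).

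Replication-dependent histone genes had 6 of 45 lower and 1 higher (median -0.75), and 36 of 45 were apart between the mocks. Lower calls rose to 14 under median-ratio scaling, 13 under upper-quartile scaling and 20 with a pseudocount of 0.1 RPKM. The linker histones stood out, with 4 of 5 lower and a median of -1.53. Hist1h1c was at 148 RPKM in mock cells and 57.6 RPKM in 4OHT cells, 2.58-fold lower (2.45 to 2.71), and Hist1h1d at 18.6 RPKM in mock cells and 4.31 RPKM in 4OHT cells, 4.32-fold lower (3.8 to 4.92), although both were lower still in the other mock library, at 48.8 and 2.57 RPKM. Medians were -0.65, -0.73, -0.75 and -0.82 for genes of H2A, H2B, H3 and H4. The one higher, the H3 gene Hist1h3d, rests on 15 and 165 reads. These transcripts lack poly(A) tails and have near-identical copies, so their counts from poly(A)-selected RNA are uncertain.

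Few genes of the chromatin machinery were called, but the same holds for all measured genes, of which 11.5% passed 2-fold and 6.19% were lower. Counts this low in short lists therefore do not set these genes apart. Of 18 measured genes of MLL and SET1 complexes 0 passed 2-fold, and their median of 0.11 was -0.01 under median-ratio scaling. The gene for MLL4, listed as Mll2, was at 9.31 RPKM in mock cells and 10.2 RPKM in 4OHT cells, 1.09-fold higher (1.05 to 1.14), and Mll3 at 5.17 RPKM in mock cells and 4.09 RPKM in 4OHT cells, 1.27-fold lower (1.18 to 1.35). The most distant members were Men1, menin, at 10.2 RPKM in mock cells and 14.5 RPKM in 4OHT cells, 1.42-fold higher (1.28 to 1.58), and the H3K27 demethylase gene Kdm6a at 6.38 RPKM in mock cells and 4.38 RPKM in 4OHT cells, 1.46-fold lower (1.3 to 1.63). Histone demethylases had 0 of 21 past 2-fold, with a median of 0.05 that became -0.06 under median-ratio and -0.03 under upper-quartile scaling. Among 27 coactivators and acetyl readers the 2 lower ones were Ppargc1a (6.33 RPKM in mock cells and 0.948 RPKM in 4OHT cells) and Ppargc1b (12.6 RPKM in mock cells and 3.3 RPKM in 4OHT cells), the PPAR coactivators of mitochondrial genes, and 0 were higher (median -0.01). Of 29 Polycomb genes 2 were lower, among them Jarid2 (10.9 RPKM in mock cells and 3.95 RPKM in 4OHT cells), 0 were higher, and the median of 0.10 was -0.01 under median-ratio scaling. The H3.3 genes H3f3a and H3f3b were at 19 RPKM in mock cells and 17.6 RPKM in 4OHT cells and 166 RPKM in mock cells and 162 RPKM in 4OHT cells, ratios of 1.08-fold lower (0.945 to 1.24) and 1.03-fold lower (0.993 to 1.06). The table has no entry for the H3.3K4M transgene, so these values do not check the labels, and near-identical copies of H3f3a make its count uncertain. Among H3 chaperones Asf1b was the 1 lower, at 35.4 RPKM in mock cells and 12.7 RPKM in 4OHT cells.

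Hox genes had 1 of 24 past 2-fold, Hoxc9 (0.917 RPKM in mock cells and 2.91 RPKM in 4OHT cells), and a median of 0.41. Of all measured genes 11.5% passed 2-fold. All 6 measured Hoxc genes lay above 0 (median 0.86, summed level 14.5 RPKM in the mock and 31.6 in the 4OHT library), and so did 7 of 8 Hoxb genes (median 0.47, 73.0 and 102.7 RPKM). Hoxa genes had a median of -0.03 over 6, 3 of them above 0, and Hoxd genes one of 0.14 over 4, 2 of them above 0.

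Progenitor markers were higher in 5 of 20 cases, 3 under median-ratio scaling, and lower in none (median 0.72). Twist2, a mesenchymal factor, was at 24 RPKM in mock cells and 64 RPKM in 4OHT cells, 2.66-fold higher (2.44 to 2.91), and Vim, vimentin, the most abundant, at 456 RPKM in mock cells and 792 RPKM in 4OHT cells, 1.74-fold higher (1.71 to 1.77). Ly6a, the stem cell antigen Sca-1, lay below its mock level at 251 RPKM in mock cells and 164 RPKM in 4OHT cells, under the limit. Among genes best known from neurons 10 of 30 were measured, of which 5 were higher and 1 lower (median 1.00); with no minimum level the median was 0.08 over 29 genes. Uchl1, a ubiquitin hydrolase, was at 1.66 RPKM in mock cells and 18.9 RPKM in 4OHT cells, 11.4-fold higher (8.27 to 16.1), Kif1a, an axonal kinesin, at 4.86 RPKM in mock cells and 36.7 RPKM in 4OHT cells, 7.54-fold higher (7.02 to 8.1), and the adhesion molecule gene Ncam1 at 6.78 RPKM in mock cells and 22.6 RPKM in 4OHT cells, 3.33-fold higher (3.1 to 3.59). The lower one was Sncg, a synuclein gene also expressed in fat cells, at 74.3 RPKM in mock cells and 14.6 RPKM in 4OHT cells, 5.09-fold lower (4.43 to 5.86). Of the 11 neuronal and Schwann markers given above 2 were measured, and the part of such cells in these values was not tested.

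Genes outside of these lists complete the ends of the ranking. Among the 25 lowest at 10 RPKM or more were Tspan12, a tetraspanin, at 52.9 RPKM in mock cells and 7.97 RPKM in 4OHT cells, Adig (adipogenin, a small protein of fat cells) at 74.6 RPKM in mock cells and 12.1 RPKM in 4OHT cells, and Ppp1r3b, which targets a phosphatase to glycogen, at 95.9 RPKM in mock cells and 15.7 RPKM in 4OHT cells. Mgst2 (10.5 RPKM in mock cells and 0.885 RPKM in 4OHT cells), a glutathione transferase gene, and Tmem182 (12.6 RPKM in mock cells and 1.39 RPKM in 4OHT cells), known from muscle, were weaker but lower by larger ratios, 11.9-fold lower (6.6 to 23.6) and 9.08-fold lower (6.38 to 13.3). Tspan12, Ppp1r3b and Adig were all lower than in the other mock library too, where they were at 34.5, 54.2 and 47.7 RPKM. Among the 25 highest were Fam198b at 6.93 RPKM in mock cells and 41.9 RPKM in 4OHT cells, the enzyme gene Ass1, which makes argininosuccinate, at 4.86 RPKM in mock cells and 24.2 RPKM in 4OHT cells, and Ogdhl at 2.93 RPKM in mock cells and 16.3 RPKM in 4OHT cells. Ogdhl encodes a relative of a TCA cycle enzyme whose own gene Ogdh was lower, at 62 RPKM in mock cells and 29.8 RPKM in 4OHT cells. The secreted EGF-like protein gene Egfl6 was at 3.09 RPKM in mock cells and 23.3 RPKM in 4OHT cells, and Gxylt2, which adds xylose to Notch repeats, at 2.26 RPKM in mock cells and 12.6 RPKM in 4OHT cells. The largest gains in RPKM after Bgn and Acta2 were H19, Thbs1, Actb, Tmsb4x, Lox, Actg1, Fstl1 (204 RPKM in mock cells and 619 RPKM in 4OHT cells) and Fn1 (fibronectin, 309.7 RPKM in mock cells and 722 RPKM in 4OHT cells), of which Actb and Actg1 encode actins and Thbs1, Lox, Fstl1 and Fn1 encode secreted proteins.

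**Figure D5:**
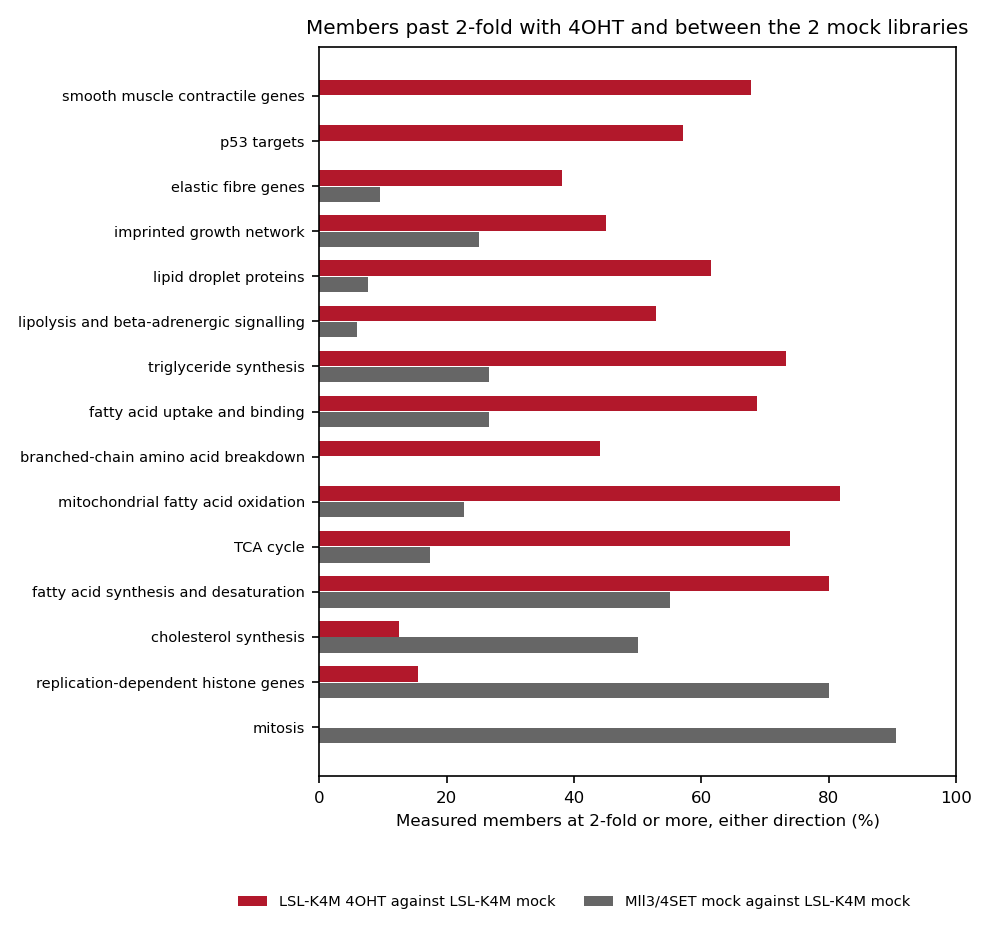
Percent of each list's measured members at 2-fold or more in either direction, for 4OHT against mock in LSL-K4M (red) and for the Mll3/4SET mock against the LSL-K4M mock (grey). Contractile genes and p53 targets have 67.7% and 57.1% with 4OHT and 0.0% between the mocks, while mitosis has 0.0% with 4OHT and 90.6% between the mocks.

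Some lists stood apart when set beside the spread between untreated lines. Contractile genes, p53 targets, branched-chain amino acid breakdown, lipid droplet proteins and lipolysis differed with 4OHT in 21 of 31, 16 of 28, 11 of 25, 8 of 13 and 9 of 17 members and between the mocks in at most 1 member each. Fatty acid synthesis differed in both, in 16 of 20 and 11 of 20 members. Mitosis and histone genes differed mainly between the mocks, in 29 of 32 and 36 of 45 members. Further lists also had at most 1 member apart between the mocks. Integrins had 2 lower and 4 higher of 12 with 4OHT and 0 of 12 apart between the mocks. Complement genes had 5 lower and 1 higher of 18 and 0 of 18 apart. Interferon-inducible genes had 10 lower of 41 and 1 of 41 apart. Other lists lay between these cases, such as triglyceride synthesis with 11 of 15 and 4 of 15. The MLL and SET1 complexes, mitochondrial ribosomal proteins and laminins had no member past 2-fold in either comparison. Of all genes 11.5% passed it with 4OHT and 4.99% between the mocks, so this says little for the shorter lists. Both comparisons share the LSL-K4M mock library, so a value that was unusual in that library would appear in both.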

How the data were processed

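RNA of 2 LSL-K4M cultures was compared, 1 library each. Per the file headers, the authors deposited a read count and an RPKM for each library and RefSeq transcript, a ratio of mock to 4OHT, and a further column of the unit kind other headed as expressed. The deposited ratio matched (mock RPKM + 0.001)/(4OHT RPKM + 0.001) within 1e-06 in 100% of transcripts, and the expressed column equalled the number of libraries at 1 RPKM or more in 100%; neither was used further. RPKM per read was 0.938 times as large in the 4OHT as in the mock library. Per the submitters' processing notes the build was mm9 and SICER was among the tools, while the aligner and counter are not given in the sources used here. All per-sample columns belonged to the series (0 columns left unused).

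For each of 22835 names the transcript with the highest mean RPKM was kept (3906 names had several). Of 2735 names with several measured transcripts, 31 had transcripts on both sides of the 2-fold limit and 0 had opposite calls. Isoforms, overlapping genes and near-identical copies share reads, and counting is not stated to use strand. The pseudocount was 1 RPKM, the minimum 1 RPKM in the higher library and the limit 2-fold. Ratios carry exact conditional binomial 95% intervals and read shares Wilson intervals, both for counting error only, since reads without molecular identifiers are not independent molecules. The size rule was tested on simulated data.

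The alternatives, the naming rule, 61 pathway lists and 7 marker lists were chosen with earlier results of these data known; afterwards only a gene of another complex, Cox4nb, was taken off the complex IV list. Named by rule are the H3.3 genes, Mll2, Mll3, Pparg, Cebpa, Ucp1, the 25 lowest and 25 highest genes at 10 RPKM or more, the 10 largest losses and gains in RPKM, and in each list the 4 largest differences and the 2 highest levels. A few genes that this rule names are not reported here. These genes were named after their values were seen: Brp44, Cebpd, Cebpg, Crabp1, Gpx8, Inhbb, Mdm2, Meg3, Ncam1, Nr4a1, Ogdh, Otop1, Pltp, Serpina3n, Slc27a3, Vegfa, Zfp423, Zfp521, Suv420h2, Ndufs3, Cycs, Phyh, Lats2, Palld, Klf5, Vcl, Cnn2, Ldb3, Myl6, Lum, Acvrl1, Plin3, Plin5, Slc2a1 and Slc2a3. Current symbols matched 98% of names through RefSeq of GRCm38.p6, a build other than mm9, which also gave the promoter sequences, so their coordinates are not those of the counted reads. Python 3.11.15, numpy 2.4.6, pandas 2.3.3, scipy 1.17.1 and matplotlib 3.10.9 were used.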

Additional observations from a re-analysis of the deposited data

How the results depend on the processing

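With 1 library per group no replicate could be left out, and no interval here covers variation between cultures. No paired analysis was possible because each group has 1 library. Of 754 genes lower and 642 higher (54.0% of calls lower), a pseudocount of 0.1 made 1040 lower and 1019 higher (50.5% lower) and one of 0.001 made 1085 and 1076 (50.2%). Median-ratio scaling gave 910 and 481 (65.4%) and upper-quartile scaling 871 and 518 (62.7%); the median of all genes was then 0.00 and 0.02 in place of 0.10. With no minimum level the counts were 754 and 642, with a minimum of 5 RPKM 620 and 502, with the transcript of most reads 754 and 637, and with names of a single transcript 598 and 491. The smaller counts of the stricter settings follow from fewer genes being measured. A smaller pseudocount shrinks the differences of weak genes less, so its counts are higher by arithmetic. Why the share of lower calls fell with it was not tested. Of the 339 ratios of genes under the naming rule, none past 2-fold reversed in these settings; 937 of their alternative values stayed within the counting interval and 356 moved beyond it. Of 66 list medians 7 changed sign in some setting, 4 of them under another scaling, and none of these lay beyond 0.3 from 0. Besides those given with their lists, the macrophage median was -0.00 with no minimum, and with names of a single transcript the median of demethylases was -0.03 and that of H3.3 genes and chaperones 0.02. Depth limits weak genes most, as for Ucp1 with 3 reads in the 4OHT library.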
